A study of Mus musculus with 6 samples.

Results

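Serine synthesis and the folate-bound one-carbon cycle were followed through 8 enzyme genes in CD8+ T cells from the spleen: Phgdh, Psat1, Psph, Shmt1, Shmt2, Mthfd1, Mthfd1l and Mthfd2. They were given by name, in a choice made with earlier results of these data known, and all 8 were among the 28773 gene IDs listed and among the 12444 genes tested. The cells were isolated with a CD8+ T cell kit from mouse spleens on day 35, 3 samples in each of 2 groups. In both groups the mice had borne an implanted tumor that was treated by microwave ablation (MWA), in which a probe heats and destroys the tumor. The MWA+PBS mice (replicates 1 to 3) were then given the PBS vehicle. The MWA+2DG mice (replicates 4 to 6) were given repeated injections of 2-deoxy-D-glucose (2DG), a glucose analogue that slows glycolysis and that had been stopped before the cells were taken. The labels give no strain, age or tumor line for these samples, and do not say whether a sample was 1 mouse or a pool, so the p-values measure only the spread between samples. No batch is given either, and a batch that ran with the treatment cannot be told apart from it. No group without ablation was analysed here.

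Serine is made from the glycolytic intermediate 3-phosphoglycerate in a short branch off glycolysis. PHGDH oxidizes that intermediate, PSAT1 transfers an amino group to the product, and PSPH removes the phosphate to leave serine. The SHMT enzymes then split serine into glycine and a one-carbon unit that is carried on folate, SHMT1 in the cytosol and SHMT2 in mitochondria. Mitochondrial one-carbon units are oxidized to formyl-folate by MTHFD2 and released as formate by MTHFD1L. In the cytosol MTHFD1 puts formate back on folate for purine and thymidylate synthesis. T cells raise this pathway when they are activated and divide. The study asked how interfering with glycolysis after ablation changes the metabolism of CD8+ T cells, and serine synthesis starts from a glycolytic intermediate.

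Psat1, Mthfd1 and Mthfd1l were lower in MWA+2DG than in MWA+PBS, by 22.5%, 19.4% and 13.5% of the mean FPKM (sequenced fragments per transcript length, as a share of all mapped fragments). The other 5 genes did not pass the test. In these genes the ranges of the groups overlapped. Thus 3 of 8 (37.5%) were called lower and 0 were called higher, where a call is an adjusted p below 0.05 (limma on log2(FPKM + 1), Benjamini-Hochberg over all tested genes). An unadjusted P under 0.05 gave the same 3 and 0, against 20.5% of all tested genes lower, 28.1% higher and 48.6% in either direction. By the adjusted p, 17.1% of all tested genes were called lower, 22.3% higher and 39.4% in either direction, and with 8 genes a share of 37.5% stands on 3 of them. By the rule of the study's methods, P under 0.05 and a log2 fold change beyond 0.25, Psat1 and Mthfd1 were lower, against 16.6% of all genes, with 21.6% of all genes higher and 38.2% in either direction. The groups did not overlap, with MWA+2DG lower, in the same 3 genes as the adjusted p called, and in 21.9% of all genes. They did not overlap with MWA+2DG higher in 30.2% of all genes, and in either direction in 52.1%. The fold change was below 0 in 7 of 8 genes, against 43.3% of all tested genes, and in 5 of 8 when group medians took the place of means, against 43.8%. The sign of Psph, Phgdh and Shmt1 turned under some settings. The median log2 fold change of the 8 was -0.089, and that of all tested genes was 0.046. In bulk samples such as these, fewer cells of a type and less RNA per cell cannot be told apart.

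The promoters of the 3 lower genes are shown because these genes moved in the same direction. Each is a RefSeq window of 300 bases in GRCm38.p6 that ends shortly after the start of the gene, on the strand of the gene and 5′ to 3′. Capitals mark CCAAT, the box bound by NF-Y, or ATTGG where the box lies on the opposite strand. The Psat1 window is chr19:15925010-15925309 on the minus strand, the Mthfd1 window is chr12:76254982-76255281 on the plus strand, and the Mthfd1l window is chr10:3972825-3973124 on the plus strand.
Psat1: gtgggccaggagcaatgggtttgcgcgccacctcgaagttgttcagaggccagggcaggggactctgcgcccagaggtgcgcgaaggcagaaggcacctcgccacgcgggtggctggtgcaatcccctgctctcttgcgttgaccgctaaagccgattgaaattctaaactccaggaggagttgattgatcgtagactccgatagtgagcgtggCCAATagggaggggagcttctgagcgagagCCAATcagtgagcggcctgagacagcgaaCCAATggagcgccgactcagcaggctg
Mthfd1: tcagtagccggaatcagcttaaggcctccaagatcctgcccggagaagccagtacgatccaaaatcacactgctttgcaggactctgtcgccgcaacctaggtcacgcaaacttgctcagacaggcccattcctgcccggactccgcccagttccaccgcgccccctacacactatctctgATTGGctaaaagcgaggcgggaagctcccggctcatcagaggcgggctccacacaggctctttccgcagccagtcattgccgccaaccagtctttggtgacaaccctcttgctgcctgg
Mthfd1l: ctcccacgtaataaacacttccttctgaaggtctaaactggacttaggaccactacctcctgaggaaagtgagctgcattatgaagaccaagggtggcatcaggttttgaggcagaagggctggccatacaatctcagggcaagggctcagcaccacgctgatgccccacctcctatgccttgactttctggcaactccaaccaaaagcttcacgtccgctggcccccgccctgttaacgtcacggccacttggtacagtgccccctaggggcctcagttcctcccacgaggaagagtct
The Psat1 window held 3 CCAAT boxes, the Mthfd1 window held 1 and the Mthfd1l window held 0. The annotation gives Psat1 another start nearby, whose window held 0. GC content was 60.3%, 59% and 55.3% in the 3 printed windows, and its median over all windows was 52.7%. RefSeq windows were found for all 8 genes, 9 windows in all. CCAAT on either strand was in 6 of the 9 windows, 1 each of Phgdh, Psat1, Psph, Shmt1, Mthfd1 and Mthfd2, and in 37.4% of the 32851 mouse windows. The boxes were therefore in called and uncalled genes alike. The amino acid response motif TGATGNAA, to which ATF4 binds, was in 0 of the 9 windows and in 3.97% of all windows. The E-box CACGTG, bound by MYC, was in 0 of the 9 and in 7.15% of all windows. TGACGTCA, TGACGCAA and TTTGGCGC, the CRE, a CRE-like site and an E2F site, were also in 0 of the 9, against 1.79%, 0.49% and 0.514% of all windows. GCGCATGC, the NRF1 site, was in the Shmt2 window alone of the 9 and in 2.71% of all windows. Motifs were sought on both strands and only in these letters. No other motif holds CCAAT or ATTGG. A match describes the letters of the window and is not a measured binding site, and no match covers only this window.

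**Figure D1:**
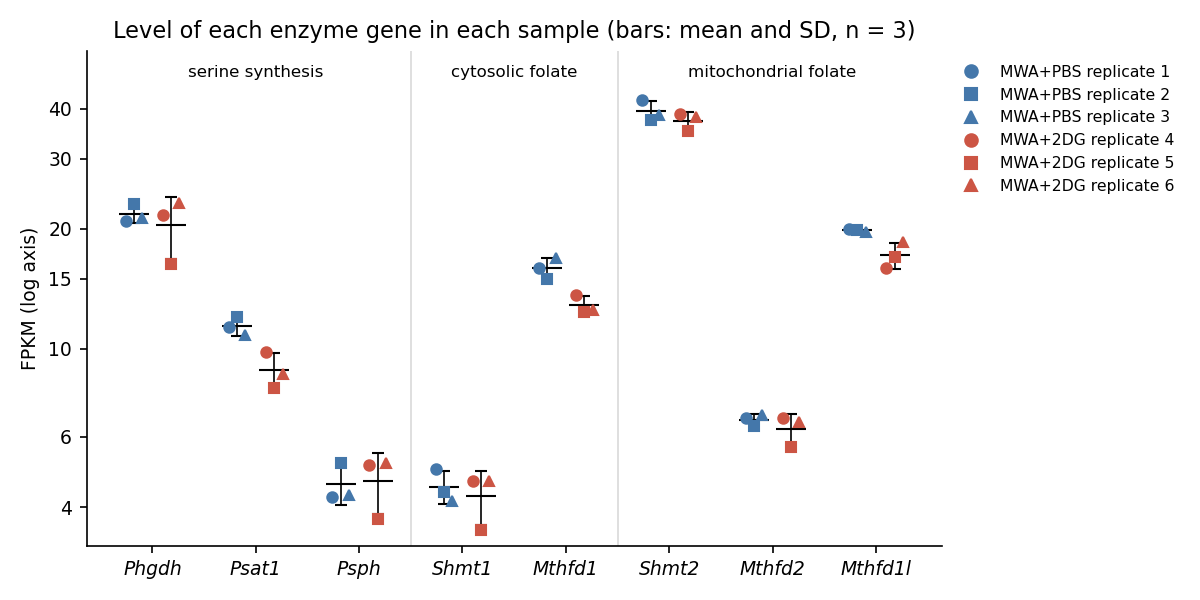
FPKM of the 8 enzyme genes on a log axis, 1 point per sample, blue for MWA+PBS and red for MWA+2DG, with bars for the mean and SD (n = 3 per group). The groups are apart for Psat1, Mthfd1 and Mthfd1l and overlap for the other 5 genes.

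Of the serine synthesis enzymes, Psat1 (ENSMUSG00000024640) changed. Its FPKM was 11.34, 12.0 and 10.8 in MWA+PBS replicates 1 to 3 and 9.82, 7.98 and 8.65 in MWA+2DG replicates 4 to 6. Every MWA+2DG sample was under the lowest MWA+PBS sample. The means were 11.38 ± 0.601 and 8.817 ± 0.931 (SD, n = 3), and the log2 fold change was -0.34 (SE 0.0816, limma adjusted p = 0.0142, 95% interval -0.53 to -0.15).

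Phgdh (ENSMUSG00000053398), which catalyses the first step, had an FPKM of 20.95, 23.06 and 21.32 in MWA+PBS against 21.64, 16.36 and 23.2 in MWA+2DG. Replicate 5 was the lowest of the 6 samples and replicate 6 the highest. The means were 21.78 ± 1.13 and 20.4 ± 3.58, and limma gave a log2 fold change of -0.10 (adjusted p = 0.529, 95% interval -0.38 to 0.18). Phgdh is hard to measure by short reads, since the mouse genome holds processed copies of it. A search of GENCODE transcripts found 9 other genes that matched Phgdh at an identity of at least 95% over at least 200 bases, and 7 of them were listed. Gm7901, which matched at 98.7% over 1597 bases, was listed at 6.6, 6.73 and 4.36 FPKM in MWA+PBS against 5.29, 9.07 and 5.42 in MWA+2DG. Its highest sample, replicate 5, was the lowest for Phgdh. The copies together held 13.55 FPKM in replicate 5 and between 10.06 and 11.67 in the other samples. Reads from the gene and its copies may have been split between them, so the level of Phgdh in a single sample is uncertain. The sum of Phgdh and its copies was 32.62, 34.55 and 31.8 FPKM in MWA+PBS against 32.18, 29.91 and 33.26 in MWA+2DG. Replicate 5 was still the lowest of its group, by less than for Phgdh alone. The log2 fold change of the sum was -0.05 (SE 0.0603, limma adjusted p = 0.522). This sum was formed after the values were seen.

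Psph (ENSMUSG00000029446), the phosphatase of the last step, had an FPKM of 4.25, 5.16 and 4.28 in MWA+PBS against 5.09, 3.73 and 5.15 in MWA+2DG. Replicate 5 was the lowest of the 6 samples, and replicates 4 and 6 lay within the MWA+PBS range. The means were 4.563 ± 0.517 and 4.657 ± 0.803, and the log2 fold change was 0.02 (limma adjusted p = 0.922, 95% interval -0.27 to 0.30), with a sign that turned under several settings. Psph shares 255 bases at 100% with Cct6a, a chaperonin gene on the opposite strand that reached 55.46 FPKM and whose log2 fold change was -0.59. The sources used here do not say whether strand was used in counting, so reads of Cct6a in that stretch may be part of the Psph value.

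In the cytosolic branch, Mthfd1 (ENSMUSG00000021048) had the lowest P of the 8 genes. Its FPKM was 15.91, 14.99 and 16.86 in MWA+PBS against 13.65, 12.33 and 12.53 in MWA+2DG. The highest MWA+2DG sample was under the lowest MWA+PBS sample. The means were 15.92 ± 0.935 and 12.84 ± 0.711, and limma gave a log2 fold change of -0.29 (SE 0.0661, adjusted p = 0.0112, 95% interval -0.44 to -0.14). By P it stood at rank 3046 of the 12444 tested genes.

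Shmt1 (ENSMUSG00000020534), the cytosolic serine hydroxymethyltransferase, had an FPKM of 4.99, 4.36 and 4.15 in MWA+PBS against 4.65, 3.51 and 4.65 in MWA+2DG. The groups overlapped, with replicate 5 lowest. The means were 4.5 ± 0.437 and 4.27 ± 0.658, and the log2 fold change was -0.07 (limma adjusted p = 0.663, 95% interval -0.32 to 0.19). Shmt1 overlaps Smcr8 on the opposite strand, which reached 14.89 FPKM. The sum of Shmt1 and Mthfd1 was 20.42 ± 0.928 FPKM in MWA+PBS against 17.11 ± 1.23 in MWA+2DG, with no overlap, and Mthfd1 made up most of it.

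In the mitochondrial branch, Mthfd1l (ENSMUSG00000040675), the formate-releasing enzyme, was called lower by the smallest margin. Its FPKM was 20.02, 19.82 and 19.58 in MWA+PBS against 15.98, 16.94 and 18.5 in MWA+2DG. The MWA+PBS samples lay close together and the MWA+2DG samples were all below them and more spread. The means were 19.81 ± 0.22 and 17.14 ± 1.27, and limma gave a log2 fold change of -0.20 (SE 0.0633, adjusted p = 0.0394, 95% interval -0.35 to -0.05). Leaving out any 1 sample other than MWA+2DG replicate 6 took the adjusted p to between 0.0617 and 0.132. Without the filter on low values it was 0.0612, and without the trend in eBayes it was 0.0583.

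Shmt2 (ENSMUSG00000025403), the mitochondrial serine hydroxymethyltransferase, had the highest level of the 8 genes. Its FPKM was 42.2, 37.52 and 38.64 in MWA+PBS against 38.91, 35.17 and 38.13 in MWA+2DG. The ranges overlapped, since replicates 4 and 6 were above MWA+PBS replicate 2. The means were 39.45 ± 2.44 and 37.4 ± 1.97, and limma gave a log2 fold change of -0.07 (adjusted p = 0.4, 95% interval -0.23 to 0.08).

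Mthfd2 (ENSMUSG00000005667), the mitochondrial dehydrogenase and cyclohydrolase, had an FPKM of 6.68, 6.41 and 6.81 in MWA+PBS against 6.69, 5.66 and 6.55 in MWA+2DG. Only replicate 5 was outside the MWA+PBS range. The means were 6.633 ± 0.204 and 6.3 ± 0.559, and the log2 fold change was -0.07 (limma adjusted p = 0.506, 95% interval -0.24 to 0.11). The 3 mitochondrial genes together held 65.89 ± 2.68 FPKM in MWA+PBS against 60.84 ± 2.78 in MWA+2DG, and these sums did not overlap. Shmt2, which was not called, held most of this sum, and the nearest samples of the groups were at 63.75 and 63.18 FPKM. The sum of the 3 serine synthesis genes was 37.72 ± 2.17 and 33.87 ± 5.03 FPKM and did overlap.

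The order of the levels in FPKM, which is per transcript length, was the same in both groups: Shmt2, Phgdh, Mthfd1l, Mthfd1, Psat1, Mthfd2, Psph and Shmt1. In MWA+PBS, Psph and Shmt1 were the only neighbours in that order whose ranges overlapped. In MWA+2DG, Phgdh and Mthfd1l overlapped too. Among all tested genes Shmt2 stood at the 92.1 percentile of mean level, Phgdh at the 83.1, Mthfd1l at the 80.6, Mthfd1 at the 74.3 and Psat1 at the 64.1. Mthfd2, Psph and Shmt1 stood lower, at the 49.5, 38.7 and 37.1 percentile.

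Ratios within a sample do not change when all its values are multiplied by 1 factor. The log2 ratio of Mthfd2 to Mthfd1, the mitochondrial to the cytosolic dehydrogenase, was -1.262 ± 0.042 in MWA+PBS against -1.029 ± 0.0937 in MWA+2DG. Mthfd2 was 0.404 to 0.428 of the Mthfd1 level in MWA+PBS against 0.459 to 0.523 in MWA+2DG, with no overlap. The log2 ratio of Psat1 to Phgdh was -0.936 ± 0.0481 and -1.2 ± 0.201, and these also did not overlap. Their difference was -0.263, and without MWA+2DG replicate 6 it was -0.1515. For both ratios the two-sided exact permutation p was 0.1, the smallest that 3 samples against 3 allow, and 0.25 after adjustment over the 5 ratios. With the copies of Phgdh added to it, the log2 ratio of Psat1 was -1.536 ± 0.0191 and -1.854 ± 0.124, again with no overlap (exact p = 0.1). The log2 ratio of Shmt2 to Shmt1 was 3.135 ± 0.0739 and 3.142 ± 0.159, a difference of 0.007 (exact p = 1.0). The ratio of Mthfd1l to Mthfd1 was 1.16 to 1.32 and 1.17 to 1.48 (log2 difference 0.099, exact p = 0.4). The log2 ratio of Psph to Phgdh was -2.259 ± 0.0864 and -2.131 ± 0.0418, a difference of 0.129 (exact p = 0.2), and with the copies added to Phgdh the difference was 0.074 (exact p = 0.7).

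**Figure D2:**
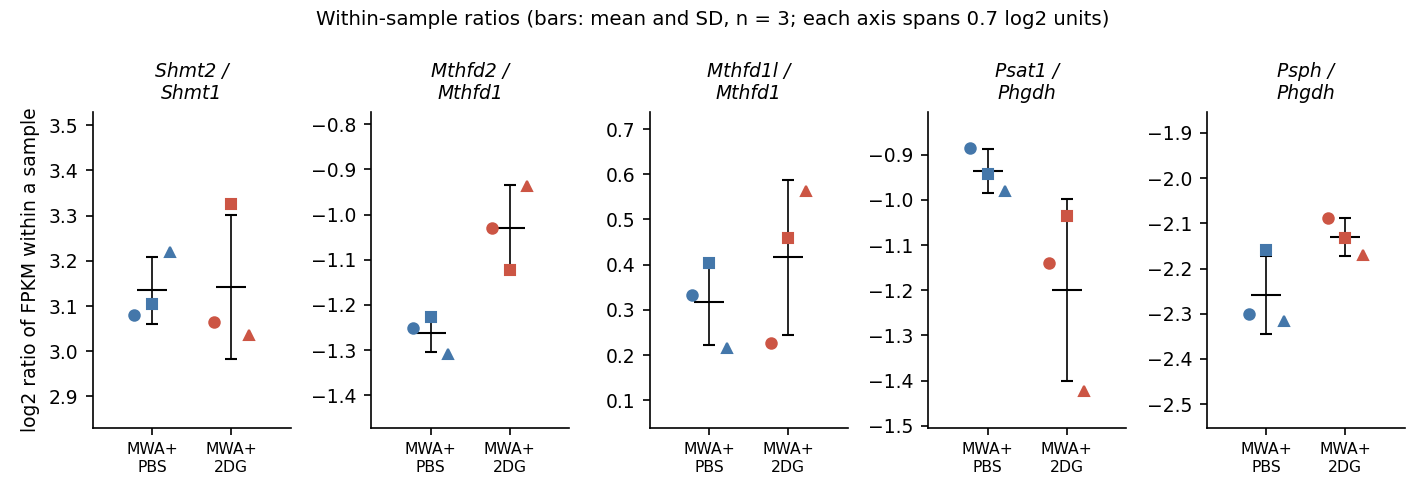
Log2 ratio of FPKM within each sample for 5 pairs of the enzyme genes, 1 point per sample, with the mean and SD (n = 3 per group); each axis spans the same width. The groups are apart for Mthfd2 over Mthfd1, higher in MWA+2DG, and for Psat1 over Phgdh, lower in MWA+2DG.

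Replicate 5 of MWA+2DG had the lowest value of its group in 7 of the 8 genes, all but Mthfd1l. It was the lowest of its group in 41.9% of all tested genes. Its median deviation from the group mean on the log2(FPKM + 1) scale was -0.127 over the 8 genes and -0.015 over all tested genes. In MWA+PBS the lowest value was that of replicates 1, 2 and 3 in 2, 3 and 3 genes. Without replicate 5 the log2 fold change was 0.04 for Phgdh and 0.04 for Shmt1, so the negative sign of these 2 genes rests on that sample. Psat1 and Mthfd1 were called lower with any 1 sample left out.

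**Figure D3:**
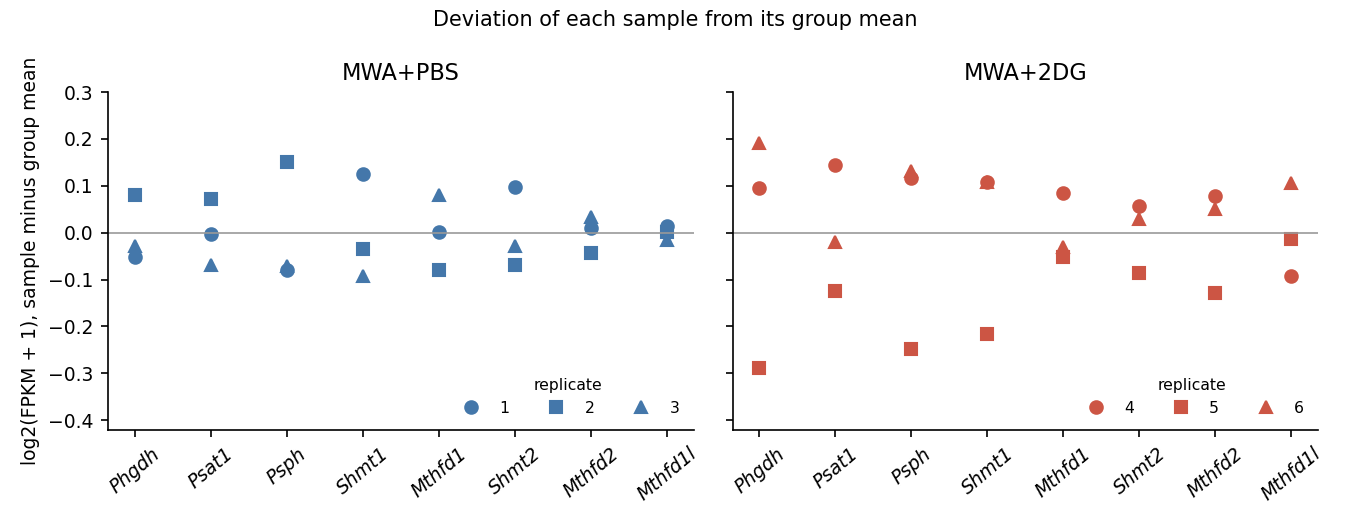
Deviation of log2(FPKM + 1) of each sample from its group mean for the 8 genes, MWA+PBS on the left and MWA+2DG on the right, with symbols for the replicates. Replicate 5 lies below the other MWA+2DG samples for all genes but Mthfd1l.

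The 5 tested genes whose profile over the 6 samples was most like that of Mthfd1 were Plekhm3, Phka2, Mroh2a, Ubqln4 and Ankrd13a. Their root mean square difference from it, on the centred log2(FPKM + 1) scale, was 0.0149 to 0.031, against a median of 0.236 over all tested genes. Phka2 encodes a regulatory subunit of phosphorylase kinase and Ubqln4 a ubiquilin. With 6 samples in 2 groups, any gene with a like group difference and little spread is near it.

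Around the 8 enzymes, 66 genes of 8 lists that cover the rest of one-carbon metabolism were examined, and 45 of them were tested. Of these 5 were called higher and 8 lower, against 22.3% and 17.1% of all tested genes, with a median log2 fold change of -0.044. When samples were scaled to T lineage genes, described below, 0 were called higher and 35 lower, on a scale where 62.2% of all tested genes were called lower. Among 6 tested genes of the other folate cycle enzymes, Tyms was called lower and the median was -0.165. By an unadjusted P under 0.05, 2 were lower and 0 higher. Tyms, thymidylate synthase, which uses a one-carbon unit to make thymidylate, was at 2.19, 2.48 and 2.13 FPKM in MWA+PBS against 1.37, 1.24 and 1.43 in MWA+2DG, with no overlap (log2 fold change -0.48, limma adjusted p = 0.00458). Mthfd2l, the paralog of Mthfd2, was between 0.07 and 0.3 FPKM, and Aldh1l2, a mitochondrial formyl-folate dehydrogenase, was between 0.0 and 0.04. Aldh1l1, which burns off cytosolic formyl-folate, was at 0.5867 ± 0.0681 and 0.1967 ± 0.0451 FPKM and was below the level needed for a test.

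De novo purine synthesis, the main cytosolic use of formyl-folate, had 3 of 8 genes lower and 0 higher by limma (median log2 fold change -0.088), against 17.1% lower and 22.3% higher among all tested genes. At an unadjusted P under 0.05, 3 were lower and 1 was higher. Atic, which adds the last formyl group of the purine ring, was at 20.67 ± 1.27 FPKM in MWA+PBS against 14.27 ± 1.16 in MWA+2DG (log2 fold change -0.51, limma adjusted p = 0.00155). Paics was at 43.97 ± 2.29 and 33.72 ± 1.47 FPKM (-0.37, limma adjusted p = 0.00234). Prps1, which makes the ribose phosphate donor, was also lower (-0.22, limma adjusted p = 0.0286).

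In the methionine cycle, which takes methyl groups from folate, 2 of 7 tested genes were higher and 1 lower (median 0.136). By an unadjusted P under 0.05, 3 were higher and 1 lower. Ahcy, which clears S-adenosylhomocysteine, was at 11.38 ± 0.724 and 8.74 ± 0.454 FPKM (limma adjusted p = 0.00583). Its relative Ahcyl1 was at 14.93 ± 0.999 and 18.05 ± 1.37 FPKM (limma adjusted p = 0.0284), and Mat2b, a regulatory subunit of methionine adenosyltransferase, at 13.35 ± 0.483 and 15.68 ± 1.0 (limma adjusted p = 0.0306). Of 6 tested folate and serine carriers 1 was higher and 0 lower (median 0.015). This was Sfxn3, a mitochondrial serine carrier, at 22.34 ± 1.89 and 30.71 ± 0.874 FPKM (log2 fold change 0.44, limma adjusted p = 0.00209). By an unadjusted P under 0.05, 2 carriers were higher and 1 lower. Sfxn1, the related carrier, was at 5.897 ± 0.138 and 5.663 ± 0.317 FPKM (limma adjusted p = 0.563), and Slc25a32, the mitochondrial folate carrier, at 6.373 ± 0.517 and 6.79 ± 0.497 (limma adjusted p = 0.462). Under T lineage scaling the log2 fold change was 0.01 for Sfxn3, -0.21 for Mat2b and -0.17 for Ahcyl1, so the sign turned for Mat2b and Ahcyl1, and Mat2b was then called lower.

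In transsulfuration and glutathione synthesis 1 of 5 tested genes was lower and 0 higher (median 0.033). This was Gclm, a subunit of the rate-limiting enzyme of glutathione synthesis, at 4.693 ± 0.284 and 3.147 ± 0.307 FPKM (limma adjusted p = 0.00378). By an unadjusted P under 0.05, 1 gene of this list was higher and 1 lower. Of the glycine cleavage system, 3 genes were tested, limma called 0 of them and the median was -0.097, with 1 higher at an unadjusted P under 0.05. Gldc, its decarboxylase, was listed at 0.0 to 0.02 FPKM. Among 7 tested genes of other uses of serine and glycine, 1 was higher and 1 lower (median -0.04). By an unadjusted P under 0.05, 2 were higher and 1 lower. Sptlc1, of the serine palmitoyltransferase of sphingolipid synthesis, was at 9.717 ± 0.985 and 11.9 ± 0.187 FPKM (limma adjusted p = 0.0247), and its log2 fold change turned from 0.27 to -0.14 under T lineage scaling. Gatm, which uses glycine to make the precursor of creatine, was at 16.56 ± 0.8 and 2.923 ± 0.455 FPKM (log2 fold change -2.17, limma adjusted p = 4.55e-06). Markers of other cells, given below, moved by as much, some down and some up. Their part in the change of Gatm was not tested.

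Of 3 regulators of the pathway, 1 was higher and 1 lower (median -0.068). Atf4, the transcription factor of the amino acid response and a known activator of these enzymes, was at 45.14, 50.87 and 39.41 FPKM in MWA+PBS against 34.42, 31.45 and 34.39 in MWA+2DG. These did not overlap, and the log2 fold change was -0.42 (SE 0.0932, limma adjusted p = 0.0103). ATF4 is controlled largely at translation, which these data do not measure. Myc, also a known activator, was at 60.31 ± 3.69 and 72.65 ± 2.35 FPKM (log2 fold change 0.27, limma adjusted p = 0.0114), which became -0.18 (limma adjusted p = 0.0765) under T lineage scaling.

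**Figure D4:**
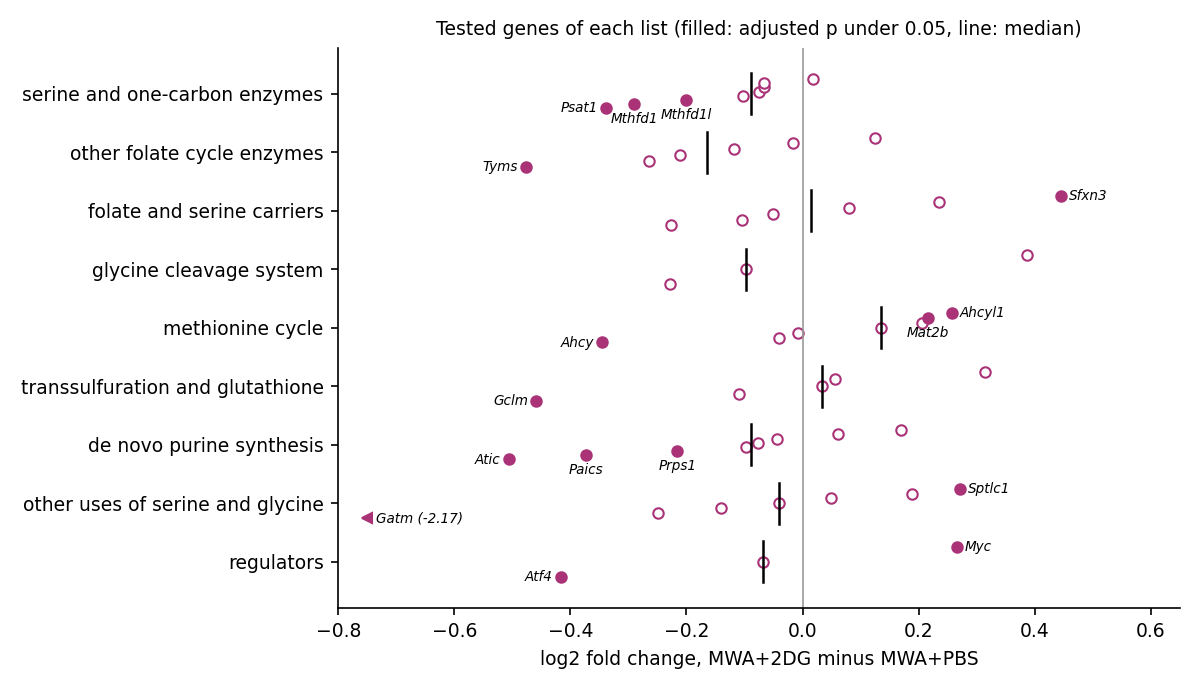
Log2 fold change, MWA+2DG minus MWA+PBS, of each tested gene of the 8 enzymes and of the 8 related lists, 1 point per gene, filled at a limma adjusted p under 0.05, with a line at the median of each list. The called purine genes and Tyms lie left of 0, and Gatm, drawn at the edge, is at -2.17.

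Markers of cell type and of division moved between the groups at the same time. Cd8a was at 231.5 ± 6.96 FPKM in MWA+PBS against 366.4 ± 9.47 in MWA+2DG. Cd4 was at 2.753 ± 0.16 and 1.657 ± 0.11, far below Cd8a in both groups. Of 18 T lineage genes 16 were higher and 0 lower, with summed levels of 2235 to 2398 FPKM in MWA+PBS against 3170 to 3429 in MWA+2DG (Cd27, a costimulatory receptor gene, 0.80). Of 20 proliferation genes 18 were lower and 0 higher, with sums of 353.0 to 371.1 and 253.6 to 264.1 FPKM, and Tpx2, a spindle protein gene, at a log2 fold change of -0.99. One-carbon enzymes are used by dividing cells, and the part of this difference in the values of Psat1, Mthfd1 and Mthfd1l was not tested.

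Genes of other cells also differed. Of 12 monocyte and macrophage genes 11 were lower and 1, Lyz2, was higher, with sums of 750.2 to 815.8 FPKM in MWA+PBS against 300.5 to 336.0 in MWA+2DG (C1qb, a complement gene, -2.78). All 9 tested erythroid genes were lower, with sums of 294.1 to 350.0 and 67.18 to 85.26 FPKM (Hba-a1, a globin gene, -2.17). Of 12 neutrophil genes 9 were higher and 3 lower, with sums of 360.9 to 398.2 and 1612 to 1794 FPKM (S100a9, 4.65). The 3 lower genes were Mpo (-2.72), Elane and Prtn3. All 9 tested B cell genes were higher, with sums of 11.12 to 12.31 and 57.02 to 62.88 FPKM (Cd79a, 2.60). Dendritic cell genes had 2 of 2 tested lower (Flt3, -1.23; sums 9.28 to 11.19 and 4.04 to 5.06 FPKM), and plasma cell genes 2 of 5 lower and 1 higher (Jchain, -1.30; sums 81.25 to 89.31 and 43.04 to 46.21). Natural killer cell genes had 1 of 3 lower, Ncr1, and 1 higher, Eomes (0.97), which memory T cells also express. The sums of this list were 52.87 to 60.59 FPKM in MWA+PBS against 73.67 to 79.51 in MWA+2DG. CD4 T cell genes had 2 of 6 lower and 0 higher (Zbtb7b, -0.51; sums 19.46 to 20.95 and 19.38 to 20.2). No listed marker was at 0 in all samples. The part of these cells in the levels of the 8 enzymes and of the related genes was not tested.

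FPKM is a share of each sample, so a second scale was set by dividing each sample by its T lineage genes. It moved the median log2 fold change of all tested genes from 0.046 to -0.337, a shift of -0.384. On this scale all 8 enzymes were called lower, with log2 fold changes from -0.35 for Psph and -0.44 for Shmt1 to -0.71 for Mthfd1 and -0.75 for Psat1. This is to be read beside all genes, of which 62.2% were then called lower. Relative to the median of all genes, the median of the 8 was -0.135 as deposited and -0.189 on the T lineage scale. Measured from that median on the T lineage scale, Psat1 stood at -0.412, Mthfd1 at -0.376 and Mthfd1l at -0.292, while Psph stood at -0.017.

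**Figure D5:**
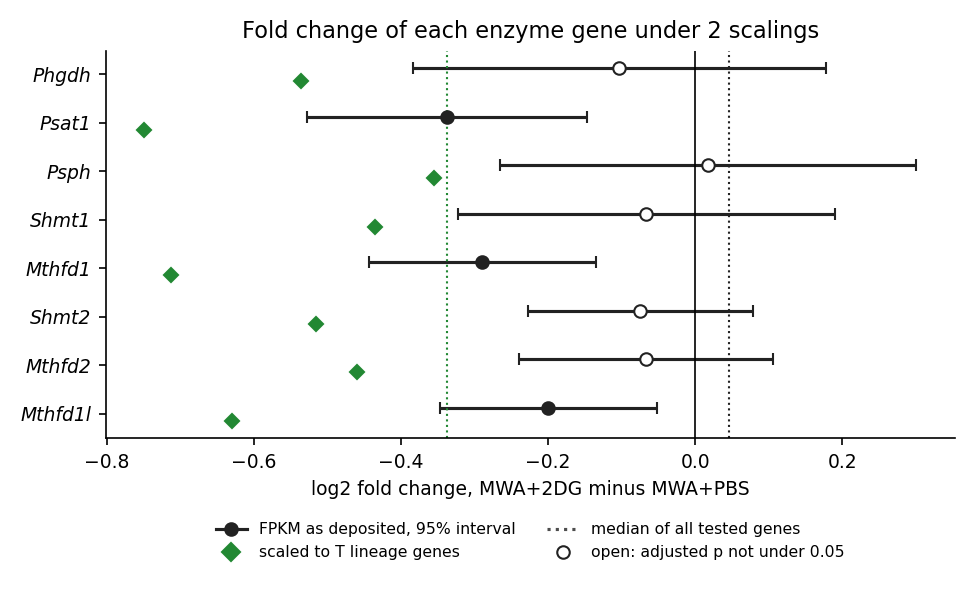
Log2 fold change, MWA+2DG minus MWA+PBS, of the 8 genes with FPKM as deposited (circles, with the 95% interval) and scaled to T lineage genes (diamonds), filled at a limma adjusted p under 0.05; dotted lines mark the median of all tested genes on each scale. Psat1, Mthfd1 and Mthfd1l are filled on both scales, and the other 5 genes on the T lineage scale alone.

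Each sample had 22414 to 23340 genes above 0. Genes at 1 FPKM or more numbered 12480 to 12515 per MWA+PBS sample and 12198 to 12282 per MWA+2DG sample. Mitochondrial transcripts held 21.4% to 22.8% of the FPKM in MWA+PBS samples and 19.4% to 20.7% in MWA+2DG samples. Neither of these measures overlapped between the groups, and their part in the enzyme levels was not tested. Read counts were not recovered, since only 25.8% to 29.6% of low values were within 0.1 of a whole step, so counting intervals could not be formed. The most frequent lowest value of FPKM times transcript length in kilobases, which is larger where fewer fragments were mapped, was 0.0347 in MWA+2DG replicate 5 and 0.0307 to 0.0319 in the other samples. If it were the worth of 1 fragment, the depth would be about 28800000 fragments in replicate 5 and 31300000 to 32600000 in the others. It was sought only within a preset range, and whole steps were not recovered, so this depth is not established. The part of depth in the low enzyme values of replicate 5 was not tested.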

How the data were processed

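Poly(A) RNA of 6 samples of isolated splenic CD8+ T cells was sequenced in pairs from strand-marked libraries. The submitters' processing notes name cutadapt 1.9, HISAT2 2.0.4, UMI-tools, StringTie 1.3.4d and mm9, and the study's methods name fastp and ballgown. The authors deposited 1 FPKM value per gene and sample, with 2 decimals and no read counts. Of 28773 gene IDs, 28689 matched a symbol in GENCODE M21.

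Genes with a mean FPKM of at least 1 were tested on log2(FPKM + 1), which understates the change of low genes, with limma 3.58.1 in R 4.3.3. The model (lmFit, then eBayes with its trend option) held the treatment alone and took MWA+2DG minus MWA+PBS in a two-sided test. Ratios were tested by exact permutation. Copies were sought with BLAST 2.17.0, and promoters came from RefSeq (GRCm38.p6). The fit was tested on simulated data.

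Named genes were the 8 enzymes, 10 fixed related genes (1 is not reported here), up to 2 called genes per list with the largest rise and fall, the 5 genes most like Mthfd1, Cd8a, Cd4 and the marker of each list with the largest change. Prps1, Cct6a, Smcr8, Gm7901, Lyz2, Mpo, Elane, Prtn3 and Ncr1 were added after their values were seen. The enzymes, lists and motifs were chosen with earlier results of these data known. Alternatives covered the pseudocount, filters, scaling, the eBayes trend, array weights, left-out samples and the summing of Phgdh with its copies, which was added after seeing the data.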

Additional observations from a re-analysis of the deposited data

How the results depend on the processing

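Psat1 and Mthfd1 were called lower under every setting that gave a test. Mthfd1l kept its direction but missed the threshold without the eBayes trend (-0.2002) and without the filter on low values (-0.2002). Under T lineage scaling the log2 fold change was -0.5359 for Phgdh, -0.4354 for Shmt1, -0.5164 for Shmt2, -0.4597 for Mthfd2 and -0.3547 for Psph, all called, with 8 of the 8 enzymes, 35 related genes (0 higher, 35 lower) and 8317 of all genes called. Of these calls 6.97% were higher, against 56.5% with FPKM as deposited. Where a mean FPKM of 5 was required, 2951 genes were called among fewer tested, and Psph and Shmt1 were not tested. Psph turned to -0.0242 with median ratio scaling and -0.0141 with quantile normalization, and to -0.0407, -0.0478, -0.0221 and -0.0180 without MWA+2DG replicate 4 or 6 or MWA+PBS replicate 1 or 3. Without MWA+2DG replicate 5, Phgdh turned to 0.0405 and Shmt1 to 0.0418. The log2 ratio of Shmt2 to Shmt1 turned to -0.008 with a pseudocount of 1, to -0.0203 and -0.0078 without MWA+PBS replicate 1 or 2, and to -0.0845 without MWA+2DG replicate 5. The cause of these turns was not tested. With 1 sample left out, the log2 fold change ranged from -0.1991 to 0.0405 for Phgdh, -0.4102 to -0.2757 for Psat1, -0.0478 to 0.1416 for Psph, -0.1208 to 0.0418 for Shmt1, -0.1091 to -0.0263 for Shmt2, -0.3318 to -0.2503 for Mthfd1, -0.2535 to -0.1537 for Mthfd1l and -0.106 to -0.0022 for Mthfd2. The number of enzymes called was 2 to 3, of related genes 9 to 13 and of all genes 3706 to 5195. The log2 ratio difference ranged from -0.0845 to 0.0601 for Shmt2 over Shmt1, 0.1858 to 0.2795 for Mthfd2 over Mthfd1, 0.0261 to 0.1935 for Mthfd1l over Mthfd1, -0.3453 to -0.1515 for Psat1 over Phgdh and 0.0999 to 0.1782 for Psph over Phgdh. With group medians in place of means, which gives no test, the difference was 0.2059 for Psph and turned to 0.0205 for Phgdh and 0.076 for Shmt1. The labels pair no samples between the groups, so no paired analysis was made.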
